A study of Macaca mulatta with 12 samples.

Results

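The Wnt ligands, their Frizzled receptors, their secreted antagonists and the nearest intracellular parts of the pathway were followed through the end of the luteal phase in the rhesus macaque corpus luteum. Members were every gene whose single platform symbol began with WNT, FZD, SFRP, DKK, DVL, AXIN or TCF7, plus WIF1, the R-spondins RSPO1, RSPO2 and RSPO3 and the R-spondin receptors LGR4 and LGR5. This gave 45 genes of the 14132 with a probe set of their own, read by 84 probe sets. They comprise 17 ligands, 9 Frizzled receptors, 9 secreted antagonists, 5 R-spondins or R-spondin receptors, the Dishevelled gene DVL2, AXIN2 and 3 TCF factors. CTNNB1 and LEF1, also within the rule, had no probe set under a single symbol and are not analysed here. The same holds for other genes of these families, such as FZD2, DVL1, DVL3, AXIN1, WNT3A and WNT9A.

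RNA came from 12 whole corpora lutea of rhesus macaques with normal menstrual cycles, 1 per one-colour Affymetrix array, and the labels call the arrays biological replicates. The mid-late group held 4 corpora lutea taken 10 to 12 days after the LH surge. The late functional group held 4 taken at 14 to 16 days with serum progesterone above 1.5 ng/ml, and the late regressed group 4 taken at the same days with serum progesterone below 0.5 ng/ml. The day of the surge was inferred from serum estradiol, and the functional state of a late corpus luteum was set by serum progesterone alone. The labels name no allele carried and no agent given.

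Wnt proteins are secreted glycoproteins that bind Frizzled receptors. In the canonical branch, binding with the coreceptors LRP5 or LRP6 disables a destruction complex built on Axin. Beta-catenin then accumulates and works with TCF and LEF factors at target genes. Non-canonical branches, such as those through ROR receptors, act without beta-catenin. In the rodent ovary, Fzd4 is needed for normal formation of the corpus luteum, and Sfrp4 is expressed by luteal cells.

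A probe set was taken as above background when its mean over the 12 arrays exceeded 4.644, the 95th percentile of 674 probe sets whose identifiers begin with NC and which have no gene symbol. Values are log2 array values, and a difference is a difference of group means on that scale. A gene was called when limma's test, run on 52707 probe sets with Benjamini-Hochberg adjustment over all of them, gave an adjusted p below 0.05. The signal of a probe set also depends on its probes, so values are compared between arrays and not between genes.

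Of the 45 members, 17 lay above background and 28 did not. Above it were 3 ligands (WNT5A, WNT10B and WNT1), 5 Frizzled receptors (FZD1, FZD4, FZD6, FZD7 and FZD8) and 4 antagonists (DKK3, SFRP1, SFRP2 and SFRP4). LGR4 was the 1 R-spondin receptor above it. DVL2, AXIN2, TCF7L1 and TCF7L2 completed the list, with AXIN2 (4.67) and WNT1 (4.86) close to the limit. Signal not above background does not show that a transcript is absent, and for those 28 genes the arrays give only weak evidence on any change.

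**Figure D1:**
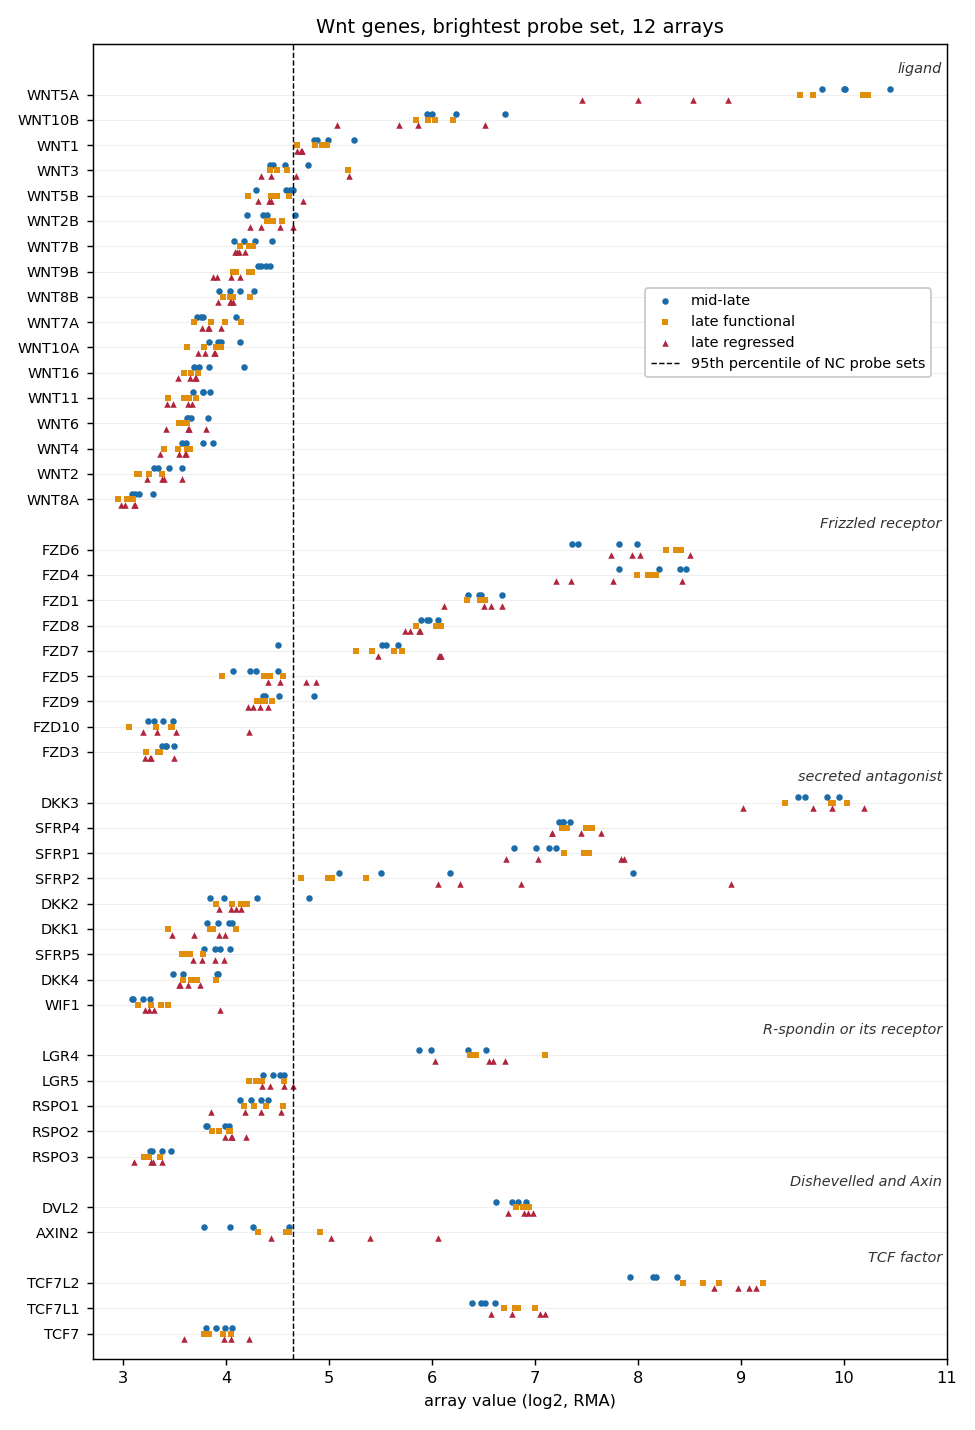
Array values (log2, RMA) of the brightest probe set of the 45 Wnt genes, by role, on 4 mid-late (circles), 4 late functional (squares) and 4 late regressed (triangles) arrays, with the background limit of 4.644 as a dashed line. The 28 genes not above background have means left of the line, and WNT5A is the gene whose late regressed arrays (7.45 to 8.88) sit farthest below its mid-late arrays (9.78 to 10.45).

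Between the regressed and the mid-late corpus luteum, 4 of the 45 members were called. WNT5A fell 3.59-fold and TCF7L2 rose 1.77-fold. On the log2 scale WNT9B differed by -0.37 and AXIN2 by 1.06, with no fold given because the first is not above background and the mid-late arrays of the second are not. The same share over all 14132 genes was 13.1% called, 7.60% higher and 5.51% lower, so 4 of 45 is no result about the members as a group. The median difference was -0.05 over the members and -0.02 over all genes. Among the 17 members above background it was 0.10, beside 0.06 over all genes above background. The arrays of both groups did not overlap for 1 member that was higher and 5 that were lower, beside 20.7% of all genes.

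The late functional group had no member called against mid-late, where 1.17% of all genes were called. There, 5 members had an unadjusted p below 0.05, beside 20.1% of all genes, and limma with array weights called 2, beside 6.87% of all genes. The arrays did not overlap for 4 members higher and 4 lower, beside 18.9% of all genes. No member was called between late regressed and late functional either, where 0.00708% of all genes were called. There, 3 members had an unadjusted p below 0.05, beside 16.1% of all genes. The arrays did not overlap for SFRP2, higher, and WNT5A, lower, beside 5.91% of all genes. The F test over the 3 groups called WNT5A, TCF7L2 and WNT9B, beside 6.65% of all genes. Both late groups were compared with the same 4 mid-late arrays, so these comparisons are not independent.

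WNT5A was lower in every regressed corpus luteum than in any other. It encodes a ligand known mainly for non-canonical signalling through ROR2 and Frizzled receptors. Its brightest probe set read 10.01, 9.99, 9.78 and 10.45 on the mid-late arrays, 10.19, 10.23, 9.70 and 9.57 on the late functional arrays, and 8.88, 8.0, 7.45 and 8.53 on the late regressed arrays. All 4 regressed arrays lay below all 8 others, while the mid-late and late functional arrays overlapped. The means were 10.06 ± 0.28 (SD, n = 4) mid-late, 9.92 ± 0.34 late functional and 8.21 ± 0.62 late regressed. The regressed group differed from mid-late by -1.84 (95% interval -2.45 to -1.24, limma adjusted p = 0.00733), and the late functional group by -0.14 (-0.74 to 0.47, adjusted p = 0.831).

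Against the late functional group at the same days of the cycle, WNT5A in regressed tissue was lower by a similar amount but did not pass the test, at -1.71 (95% interval -2.31 to -1.10, limma adjusted p = 0.0937). It passed when late functional array 4 (adjusted p = 0.0403) or late regressed array 1 (adjusted p = 0.00846) was left out. The gene's other probe sets moved with the first: from mid-late to regressed the second differed by -1.77 (adjusted p = 0.00687) and the third, whose mean is not above background, by -1.22 (adjusted p = 0.0182). Probe sets of 1 gene read the same RNA on the same arrays and are not replicates. Without late regressed arrays 2 and 3, which stand apart from the rest, WNT5A differed from mid-late by -1.36 (adjusted p = 0.0271).

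Of 9 markers of steroid-secreting luteal cells, all above background, 4 were called lower in the regressed group, beside 5.51% of all genes. The marker lists were chosen with earlier results of these data known, so such counts are no independent result. The mean log2 value of the 9 markers ran from 10.83 to 11.14 mid-late and from 10.08 to 10.69 late functional. It was 10.01, 8.27, 8.07 and 9.45 on late regressed arrays 1 to 4. Arrays 2 and 3 were the lowest in this list, as they were for WNT5A. The mean of 8 macrophage markers ran from 6.96 to 8.79 mid-late, from 9.04 to 9.12 late functional and from 8.16 to 9.96 late regressed. The mean of 9 endothelial markers ran from 8.46 to 8.60, from 8.66 to 8.85 and from 8.70 to 9.05 in the same order. Their part in the result was not tested. In whole tissue, fewer cells of a type and less RNA per cell cannot be told apart.

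**Figure D2:**
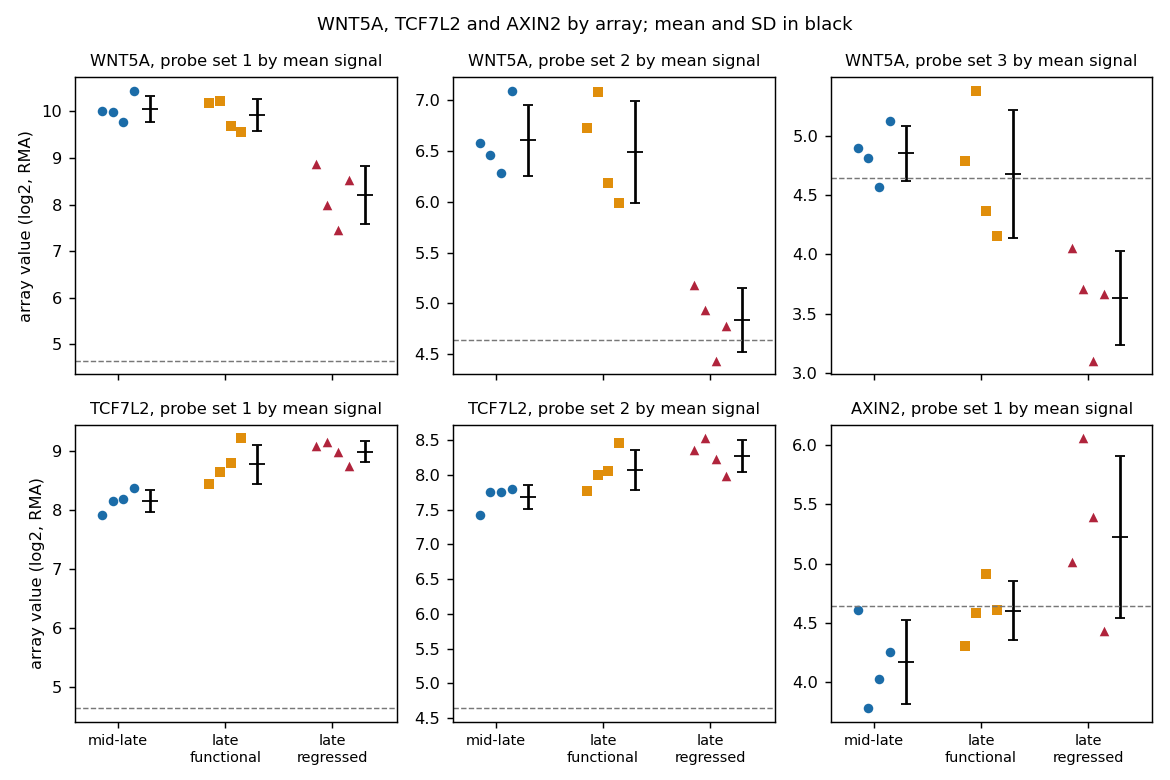
Array values (log2, RMA) of the 3 probe sets of WNT5A, the brightest 2 of TCF7L2 and the brightest of AXIN2, with each group's mean and SD (n = 4) in black and the background limit of 4.644 dashed. Every late regressed array lies below every other array in each WNT5A panel, whereas AXIN2 overlaps between groups around the limit.

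No other ligand above background was called. WNT10B, a ligand of the canonical branch, read 6.71, 6.23, 5.99 and 5.94 mid-late, 6.03, 6.20, 5.96 and 5.84 late functional, and 6.51, 5.86, 5.08 and 5.67 late regressed. Its groups overlapped, and the difference from mid-late to regressed was -0.44 (95% interval -1.0 to 0.12, adjusted p = 0.277). WNT9B was called at a signal not above background: 4.42, 4.39, 4.34 and 4.31 mid-late, 4.22, 4.09, 4.25 and 4.06 late functional, and 4.13, 3.91, 3.87 and 4.04 late regressed. Its regressed arrays lay below the mid-late ones by -0.37 on average (adjusted p = 0.0161), and without late regressed arrays 2 and 3 the call was lost (-0.28, adjusted p = 0.116).

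The low end of the scale itself moved with the groups. The mean of the 674 NC probe sets was 3.69 mid-late, 3.57 late functional and 3.55 late regressed, a shift of -0.14 from mid-late to regressed. Of the 28 members not above background, 19 differed below zero in that comparison, with a median of -0.08. Over all 14132 genes, 7550 differed below zero, of which 4128 were among the 9424 above background. Genes not above background thus leaned below zero in general, and the 19 are no result about the members. With the mean of the NC probe sets as a covariate, no member was called, while the differences were -1.43 for WNT5A, 0.95 for AXIN2, 0.53 for TCF7L2 and -0.17 for WNT9B. The NC means did not overlap between those groups (3.65 to 3.75 mid-late, 3.48 to 3.58 late regressed). That fit therefore cannot separate the difference between the groups from the shift of the low end.

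No Frizzled receptor was called in any comparison by its brightest probe set. FZD6 came closest, in the late functional group against mid-late. It read 7.36, 7.41, 7.98 and 7.82 mid-late, 8.38, 8.37, 8.42 and 8.27 late functional, and 8.02, 7.94, 7.73 and 8.50 late regressed. All 4 late functional arrays were above all 4 mid-late ones, and late regressed array 4 was the highest of all. The difference between late functional and mid-late was 0.71 (95% interval 0.34 to 1.08, 1.64-fold, adjusted p = 0.0697). Of the 12 fits without 1 array, it passed in 1, that without late regressed array 4 (adjusted p = 0.046). The highest adjusted p in those fits was 0.175. Of 13 other settings it passed in 3. These were without late regressed arrays 2 and 3 (adjusted p = 0.0298), with only the groups compared (adjusted p = 0.0243) and with array weights (adjusted p = 0.0226). The late groups differed by -0.31 (regressed minus functional, 95% interval -0.68 to 0.06, adjusted p = 0.521).

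FZD4, the receptor needed for luteal formation in mice, read 8.41, 8.46, 7.81 and 8.21 mid-late, 8.15, 8.18, 7.99 and 8.10 late functional, and 8.43, 7.75, 7.20 and 7.35 late regressed. Regressed arrays 2, 3 and 4 lay below all mid-late arrays, and array 1 lay among them. The difference was -0.54 (95% interval -1.05 to -0.04, adjusted p = 0.142), and it passed only without late regressed array 1 (-0.79, adjusted p = 0.0126) among the arrays left out singly. FZD7 read 5.67, 4.50, 5.51 and 5.55 mid-late, 5.25, 5.42, 5.70 and 5.63 late functional, and 6.07, 6.09, 6.06 and 5.47 late regressed. Its groups overlapped through late regressed array 4 and the difference was 0.61 (adjusted p = 0.114), or 0.34 without mid-late array 2, with 0.96 (adjusted p = 0.058) in its second probe set.

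FZD1 differed by -0.02 from mid-late to regressed in its brightest probe set (95% interval -0.27 to 0.23, adjusted p = 0.921). Its second probe set, also above background, differed by 0.89 and was called (adjusted p = 0.0489), but in 1 of the 12 fits that left out an array. The remaining probe sets differed by 0.29 and 0.34 without passing. FZD8 lay between 5.73 and 6.08 on all 12 arrays, and its regressed arrays lay just below its mid-late ones (-0.15, adjusted p = 0.193). FZD3, FZD5, FZD9 and FZD10 were not above background.

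Among the secreted antagonists, which bind Wnt proteins or their coreceptors outside the cell, none was called by its brightest probe set, yet 1 probe set of SFRP4 rose by more than any other member probe set. SFRP4 is a secreted Frizzled-related protein that carries a Frizzled-like Wnt-binding domain. Its brightest probe set read 7.34, 7.27, 7.23 and 7.27 mid-late, 7.31, 7.55, 7.49 and 7.26 late functional, and 7.16, 7.64, 7.44 and 7.16 late regressed. These overlap, and the difference from mid-late to regressed was 0.08 (95% interval -0.17 to 0.32, adjusted p = 0.682). The third probe set read 5.14, 4.94, 5.43 and 6.31 mid-late, 6.23, 5.94, 6.62 and 6.09 late functional, and 7.08, 8.91, 8.52 and 6.61 late regressed. Here all regressed arrays were above all mid-late ones, and the difference was 2.33 (95% interval 1.31 to 3.35, 5.02-fold, adjusted p = 0.0153).

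That SFRP4 probe set passed in all 12 fits that left out 1 array. Without late regressed arrays 2 and 3, its highest, the difference was 1.39 and the call was lost (adjusted p = 0.0565). Against the late functional group it was 1.56 (adjusted p = 0.251). The remaining SFRP4 probe sets differed by 0.05 and -0.01. The probe sets of SFRP4 therefore disagree, and the sources used here do not say which of its transcripts each of them reads.

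**Figure D3:**
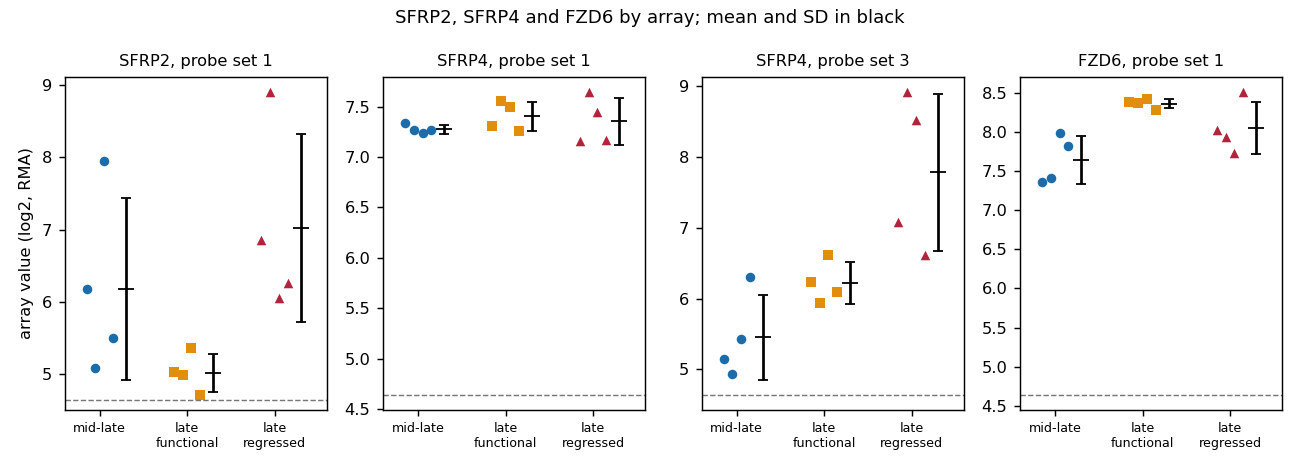
Array values (log2, RMA) of SFRP2, of the brightest and the third probe set of SFRP4 and of FZD6, with each group's mean and SD (n = 4) in black and the background limit of 4.644 dashed. SFRP4 is flat in one probe set and higher by 2.33 in the other in regressed tissue, and the SFRP2 arrays of the regressed group (6.06 to 8.90) lie above all late functional arrays (4.72 to 5.36).

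SFRP2, another secreted Frizzled-related protein, varied most among the members. It read 6.18, 5.09, 7.95 and 5.50 mid-late, 5.03, 4.99, 5.36 and 4.72 late functional, and 6.86, 8.90, 6.06 and 6.27 late regressed. The regressed arrays did not overlap the late functional ones, but mid-late array 3 was higher than 3 of the 4 regressed arrays. The regressed group exceeded late functional by 2.00 (95% interval 0.56 to 3.43, 3.99-fold, adjusted p = 0.28), a difference that did not pass. Without late regressed array 2, the highest and the array with the largest 3′ minus 5′ control difference (2.52), it was 1.37. Its mid-late SD of 1.26 and regressed SD of 1.30 are large beside the 0.26 of the late functional group.

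SFRP1 read 7.14, 6.80, 7.01 and 7.20 mid-late, 7.28, 7.47, 7.52 and 7.28 late functional, and 7.86, 7.84, 7.02 and 6.72 late regressed. Late functional arrays were all above mid-late arrays, by 0.35 (adjusted p = 0.431), and the regressed arrays spread over both. In its second probe set the late functional group was higher by 1.06 (adjusted p = 0.0762) and the regressed group by 0.25. DKK3, a divergent Dickkopf protein, read, in the brightest of 6 probe sets, 9.84, 9.55, 9.62 and 9.95 mid-late, 9.87, 9.89, 10.03 and 9.42 late functional, and 9.70, 10.20, 9.01 and 9.88 late regressed. The difference from mid-late to regressed was -0.04 with a 95% interval from -0.52 to 0.44, and the groups overlapped. The next brightest probe sets differed by 0.78 and 0.52 without passing. DKK1, DKK2, DKK4, SFRP5 and WIF1 were not above background.

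R-spondins amplify Wnt signals through LGR4 and LGR5. LGR4 read 5.87, 5.99, 6.35 and 6.52 mid-late, 6.36, 7.09, 6.43 and 6.42 late functional, and 6.55, 6.59, 6.02 and 6.71 late regressed. Its groups overlapped, with differences from mid-late of 0.39 late functional (adjusted p = 0.325, and 0.22 without late functional array 2) and 0.29 late regressed (adjusted p = 0.373, and 0.18 without mid-late array 1). LGR5 and the 3 R-spondins were not above background, and LGR5 differed by 0.02 from mid-late to regressed.

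DVL2, one of the Dishevelled proteins that relay the signal from Frizzled, was nearly flat, with values between 6.62 and 6.97 on all 12 arrays. Its difference from mid-late was 0.10 in both late groups, and the 95% interval to regressed ran from -0.07 to 0.27. AXIN2, a scaffold of the destruction complex and a widely used target gene of the canonical branch, was higher in regressed tissue. It read 4.61, 3.78, 4.03 and 4.25 mid-late, 4.31, 4.58, 4.91 and 4.61 late functional, and 5.01, 6.06, 5.40 and 4.44 late regressed. Late regressed array 4 lay within the mid-late range, and late regressed array 2 was highest. All mid-late arrays were below the background limit.

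The AXIN2 difference was 1.06 (95% interval 0.42 to 1.70, adjusted p = 0.0439). It remained called only without late regressed array 1 (adjusted p = 0.0414) or array 4 (adjusted p = 0.0154). Leaving out any other single array ended the call, with adjusted p up to 0.112. Without late regressed arrays 2 and 3 the difference was 0.55 (adjusted p = 0.221). The other 3 AXIN2 probe sets were not above background and differed by -0.09, 0.06 and 0.11.

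TCF7L2, a DNA-binding partner of beta-catenin, was higher in both late groups and called in the regressed one. Its brightest probe set read 7.92, 8.14, 8.17 and 8.37 mid-late, 8.43, 8.63, 8.79 and 9.21 late functional, and 9.07, 9.14, 8.97 and 8.73 late regressed. Every late array was above every mid-late array, and the late groups overlapped each other. The regressed group differed from mid-late by 0.83 (95% interval 0.48 to 1.17, adjusted p = 0.0134). The late functional group differed by 0.61 (95% interval 0.27 to 0.96, adjusted p = 0.0829), which passed with array weights (adjusted p = 0.0483), and the late groups differed from each other by 0.21 (-0.13 to 0.56).

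The rise of TCF7L2 in its brightest probe set was called in all 12 fits that left out 1 array, but not without late regressed arrays 2 and 3, where it was 0.75 (adjusted p = 0.0772). Of its 6 probe sets, 4 were called higher, by 0.83, 0.59, 0.67 and 0.48. The last 3 of these held in only 3, 2 and 3 of the 12 fits, and were lost after quantile normalization (adjusted p = 0.0728, 0.0781 and 0.0627). The fourth by signal differed by -0.45 (adjusted p = 0.206) and the sixth by 0.37 (adjusted p = 0.308). With probe sets of a gene averaged, TCF7L2 differed by 0.41 (adjusted p = 0.0603). Between each late group and mid-late, the median difference of the macrophage markers was 1.38 regressed and 1.29 late functional, and that of the endothelial markers 0.31 and 0.24. Their part in this result was not tested.

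TCF7L1, a TCF factor that often acts as a repressor, read 6.39, 6.61, 6.51 and 6.48 mid-late, 6.83, 6.70, 7.0 and 6.80 late functional, and 7.04, 7.10, 6.57 and 6.78 late regressed. All late functional arrays and 3 of the 4 regressed arrays were above the mid-late ones. The difference to regressed was 0.38 (95% interval 0.12 to 0.63, adjusted p = 0.0603), and it passed without late regressed array 3 (adjusted p = 0.0341) and with median centring (adjusted p = 0.0467). TCF7 was not above background.

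Over all 84 member probe sets, 11 were called between regressed and mid-late, 7 higher and 4 lower, beside 10.0% of all probe sets. Of the 11, 6 were called in all 12 fits that left out 1 array and the other 5 in 3 or fewer. The count fell to 6 without mid-late array 1, 2 or 3 or late functional array 2 or 3, and to 7 without late functional array 1 or late regressed array 2 or 3. Shares over all probe sets in those fits are not given here, so a loss particular to these genes cannot be told apart. Besides the 4 genes already called, the 11 probe sets added SFRP4 and FZD1. The other 2 comparisons called none of the 84. For 20 members the platform has several probe sets and for 25 just 1, so agreement within a gene could be examined only for those 20.

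**Figure D4:**
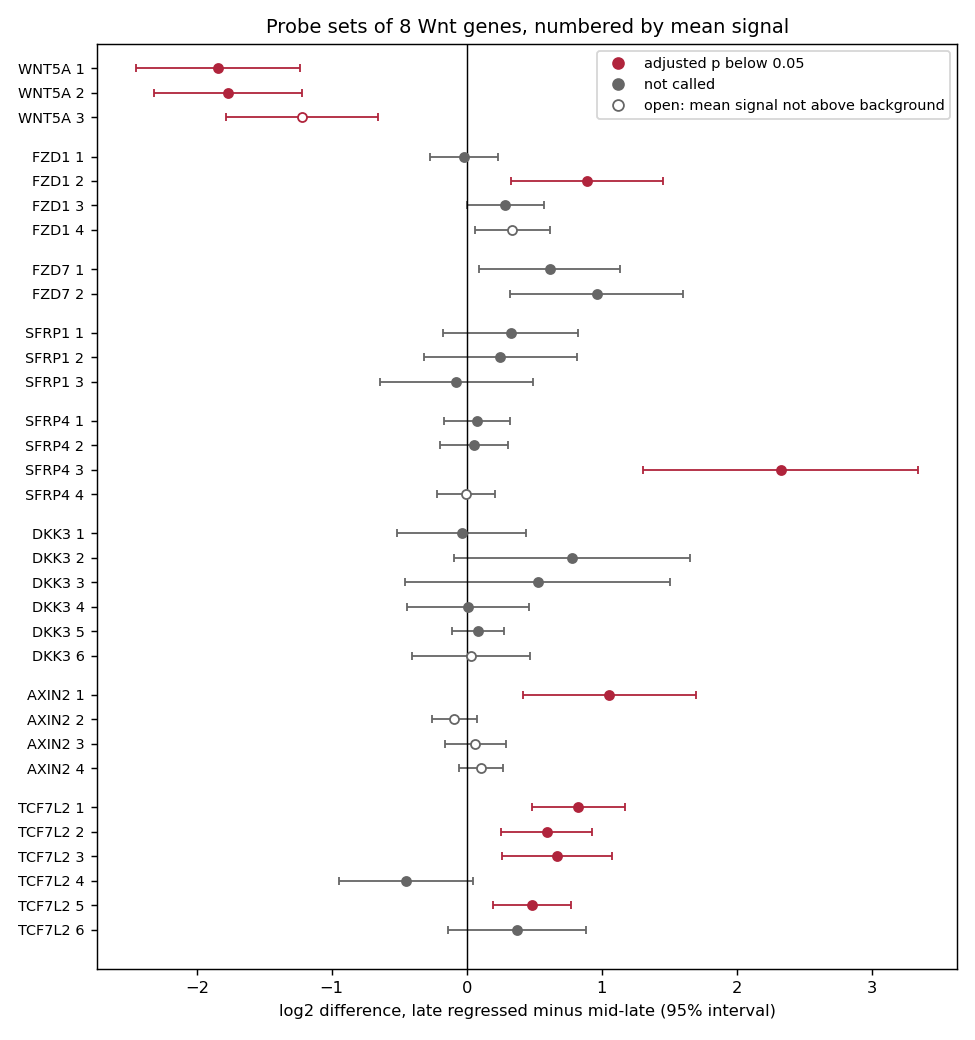
Difference between late regressed and mid-late (log2, points) with its 95% interval (bars) for every probe set of 8 Wnt genes, numbered within each gene by mean signal; open points are not above background. The 3 WNT5A probe sets lie together below 0, 4 of 6 TCF7L2 probe sets are called higher, and SFRP4, FZD1 and AXIN2 each have 1 called probe set, beside others between -0.01 and 0.08 for SFRP4, -0.02 and 0.34 for FZD1, and -0.09 and 0.11 for AXIN2.

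Intervals were compared for the brightest probe sets of the 17 members above background. From mid-late to regressed, 11 had a 95% interval that lay wholly within a 2-fold change in either direction. The intervals of the other 6, WNT5A, TCF7L2, AXIN2, FZD4, FZD7 and SFRP2, reached a 2-fold change, through the size of the difference as well as its error. From mid-late to late functional, 14 of 17 intervals lay within 2-fold, all but those of AXIN2, FZD6 and SFRP2. Some other probe sets of genes counted as within 2-fold reached beyond it. From mid-late to regressed, the log2 interval was 1.31 to 3.35 for the third SFRP4 probe set and 0.33 to 1.45 for the second of FZD1. From mid-late to late functional, it was 0.49 to 1.62 for the second of SFRP1.

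Other genes of the pathway were drawn from a list of 56, of which 45 were measured and 33 lay above background. From mid-late to regressed, 5 rose, 2 fell and 38 were not called, beside 13.1% called of all genes, so the count is no result about the list. The median difference was 0.09, beside -0.02 over all genes and 0.06 over all genes above background. The Groucho-family corepressor TLE3 rose by 0.73 (adjusted p = 0.0106), from 7.20, 7.39, 7.38 and 7.14 to 7.83, 7.85, 8.43 and 7.93, with no overlap. PTK7, a Wnt coreceptor-like protein of planar polarity, rose by 0.50 (adjusted p = 0.0302), and the planar polarity protein VANGL2 by 0.80 (adjusted p = 0.0403).

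The genes TNFRSF19 and BAMBI, both known targets of canonical signalling, rose by 1.17 (adjusted p = 0.0448) and 1.06 (adjusted p = 0.0432). CCND1, the cyclin D1 gene and another such target, fell by 1.04 (adjusted p = 0.0376), with 7.42, 7.66, 7.68 and 7.76 mid-late and 7.52, 5.98, 6.10 and 6.77 late regressed. Its regressed array 1 lay among the mid-late arrays. NKD1, a feedback antagonist, fell by 0.43 (adjusted p = 0.0144) at a signal not above background, where the NC probe sets shifted too. The list's other targets, MYC (0.33, limma adjusted p = 0.444) and SP5 (-0.17, limma adjusted p = 0.195, not above background), were not called. The called targets TNFRSF19, BAMBI and CCND1 thus did not move one way, though each was called in few of the fits without 1 array.

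Of these 7 genes, TLE3 and NKD1 were called in all 12 fits without 1 array and PTK7 in 9, whereas TNFRSF19 and BAMBI were called in 2 and CCND1 and VANGL2 in 3. Only the brightest probe set of each gene was examined, though TLE3 has 4 and TNFRSF19 has 3. Without late regressed arrays 2 and 3, TLE3 (0.60, adjusted p = 0.0331) and PTK7 (0.57, adjusted p = 0.0414) were called and the others were not. The uncalled differences were then 0.85 for TNFRSF19, 0.82 for BAMBI, -0.36 for NKD1, -0.48 for CCND1 and 0.33 for VANGL2. None of the 45 was called in the late functional group against mid-late or between the late groups. The F test over the 3 groups passed for TLE3 (adjusted p = 0.0232), NKD1 (adjusted p = 0.0353) and ROR1 (adjusted p = 0.0346). Over all genes 6.65% passed it, so this is no result about the list. ROR1, with a mean of 4.50 not above background, differed by 1.00 between the late groups (regressed minus functional, limma adjusted p = 0.116). WLS, the carrier that brings Wnt proteins to the cell surface, differed by 0.15 from mid-late to regressed, and the coreceptor LRP6 by -0.05, both without passing.

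**Figure D5:**
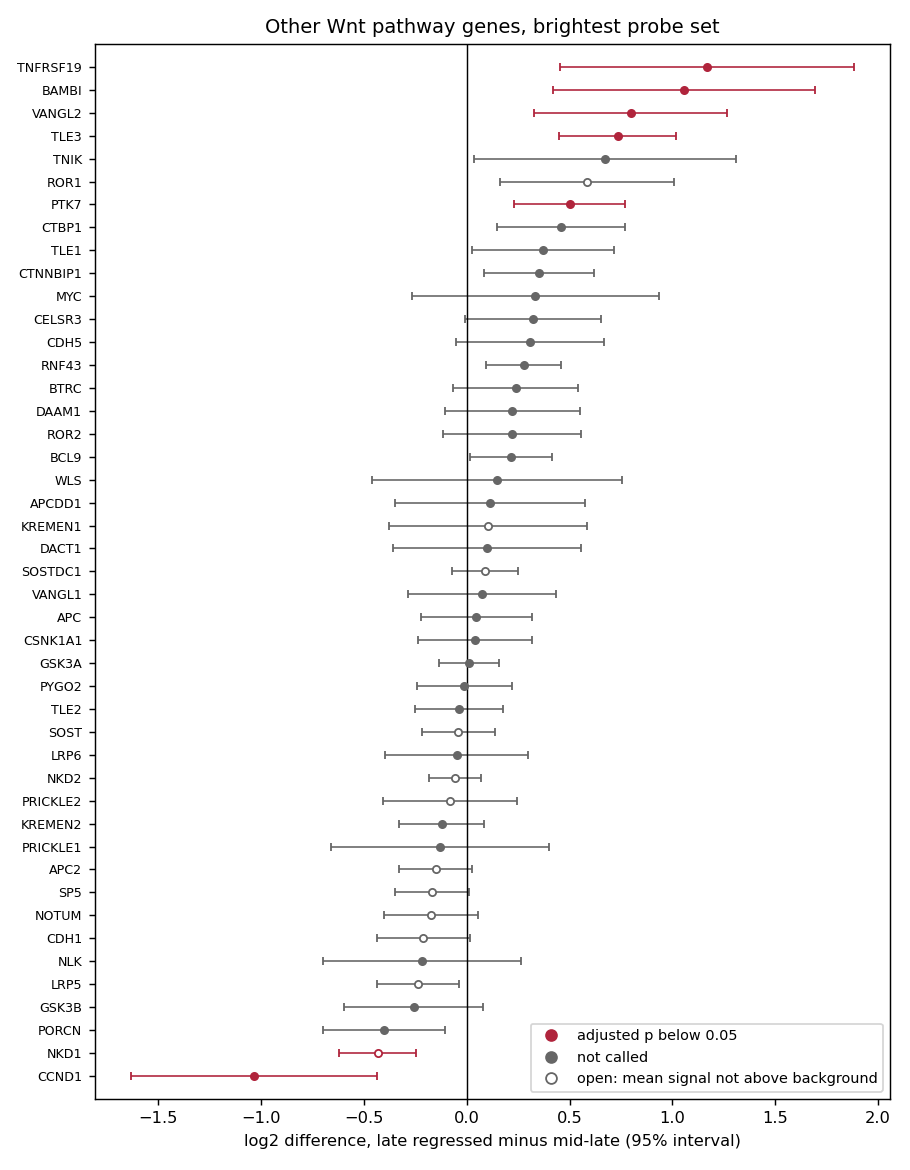
Difference between late regressed and mid-late (log2, points) with its 95% interval (bars) for the brightest probe set of 45 other Wnt pathway genes, in order of size; open points are not above background. The 5 genes called higher run from PTK7 (0.50) to TNFRSF19 (1.17), and the 2 called lower are NKD1 (-0.43) and CCND1 (-1.04).

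Across the series, late regressed arrays 2 and 3 stood apart on the first principal component of all probe sets, at 93.2 and 81.6, with the other 10 arrays between -43.0 and 12.6. On late regressed array 2 the 3′ minus 5′ difference of the beta-actin and GAPDH control probe sets was 2.52, beside 0.462 to 0.699 on the other 11. Array medians ran from 4.31 to 4.43, and no pair of arrays was identical. The difference of the control probe sets was -0.08 between late functional and mid-late (exact two-sided permutation p = 0.0286, the smallest that 4 against 4 arrays allow, 0.0857 adjusted over 3 comparisons). For regressed against mid-late the exact permutation p was 0.886. Between regressed and mid-late, 4 of 9 endothelial, 3 of 7 fibroblast and 1 of 8 macrophage markers were called higher, beside 7.60% of all genes. These lists too were chosen with earlier results of these data known. Endothelial KDR (-0.83) and macrophage C1QA (-0.68) and C1QB (-0.08) differed the other way, uncalled. The other 4 fibroblast markers were uncalled at -0.18 to -0.79, which put the median of that list at -0.18. None of 3 smooth muscle, 3 T and NK cell and 5 epithelial markers was called. The epithelial markers KRT7, KRT19, EPCAM and MSLN were not above background.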

How the data were processed

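RNA from 12 corpora lutea was measured on Affymetrix rhesus arrays, and the authors deposited 1 log2 value for every probe set of each array. Values were summarised with RMA, per the submitters' processing notes, of a version not given in the sources used here. That the values are log2 follows from their range. RMA commonly includes a quantile step, so a change in total RNA cannot be seen. No batch or scan date is given in the sources used here.

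Of 52865 probe sets, 158 array controls were left out and 52707 tested with limma 3.58.1 (R 4.3.3, lmFit and eBayes, 3 group means over all 12 arrays), with Benjamini-Hochberg adjustment and calls at an adjusted p below 0.05. The test was checked on simulated data. Gene symbols came from the platform annotation: 24956 tested probe sets have 1 symbol, 361 several and 27390 none, and the brightest probe set stood for each of 14132 genes. All 45 members matched the RefSeq table by gene identifier and none had another symbol there. The 3′ to 5′ control differences were compared with exact permutation tests.

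Members, the list of other pathway genes and the cell type markers were chosen with earlier results of these data known. Named genes were every called member, the 10 with the highest mean, the 2 most different members of each role (one per comparison with mid-late), AXIN2, LGR5, CTNNB1 and LEF1, and every called pathway gene; FZD8, WNT1 and single probe sets of SFRP4, FZD1, FZD7, SFRP1 and TCF7L2 were named after their values were seen, as were WLS and LRP6. The alternatives were other filters, scalings, covariates, array weights, the groups compared alone, a replicate block, averaged probe sets and arrays left out. The number of arrays, 4 per group, limits the precision.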

Additional observations from a re-analysis of the deposited data

Results flagged for a closer look

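Among the 17 named Wnt genes, 51 groups of 4 arrays were checked for an array far from the others, and 3 held one, where chance gives about 1 in 20. FZD7 read 4.50 on mid-late array 2, with the next array at 5.51. FZD7 read 5.47 on late regressed array 4, with the next at 6.06. LGR4 read 7.09 on late functional array 2, with the next at 6.43.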

How the results depend on the processing

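The fall of WNT5A in regressed tissue against mid-late kept its direction and its call in all 12 fits without 1 array and in 12 of 13 other settings. With the mean of the NC probe sets as a covariate the difference was -1.43 and the call was lost (adjusted p = 0.566). The NC means of those groups did not overlap, so that fit cannot separate the group from the covariate. Calls between regressed and mid-late numbered 4, and 3 to 5 without 1 array, 0 with the NC mean as covariate, 1 without late regressed arrays 2 and 3, and 2 with a 2-fold minimum. Between late functional and mid-late there were 0, but 1 with only those groups fitted, 2 with array weights, 1 without late regressed arrays 2 and 3, and 0 to 1 without 1 array. Between the late groups there were 0, and 0 to 1 without 1 array. The F test called 3, but 1 after quantile normalization, 1 with the replicate block, 0 with the NC mean as covariate and 1 to 5 without 1 array. Other pathway genes called between regressed and mid-late numbered 7, but 3 after quantile normalization, 2 with only those groups fitted, 4 with array weights, 0 with the NC mean as covariate, 2 without late regressed arrays 2 and 3, and 2 to 10 without 1 array. Shares over all genes are given here only for the main fit and, between late functional and mid-late, for array weights. In the other settings, a loss of calls in these lists cannot be told apart from a loss over all genes. FZD1 turned from -0.02 to 0.37 with its probe sets averaged (adjusted p = 0.0328), since its other probe sets are higher, and SFRP4 was then called too. The 3′ minus 5′ control difference of late functional against mid-late turned from -0.08 to 0.12 with beta-actin alone. The other causes were not tested.

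The labels give each group replicates 1 to 4, but same-numbered arrays did not deviate together (correlations from -0.12 to 0.30, 3 of 12 over 0.1), so the numbers were not taken as pairs. With the replicate block AXIN2 lost its call at the same difference of 1.06 (adjusted p = 0.0708). The call of AXIN2 held in 7 of 13 other settings and that of TCF7L2 in 10. At signals not above background, small differences such as that of WNT9B cannot be separated from shifts of the whole low range. Probe set choice decided the reading of SFRP4 and FZD1.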
